A study of Mus musculus with 20 samples.

Results

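The transcripts described here encode the proteins of the cytosolic ribosome. They were taken from the expression table that the authors deposited, as the rows whose gene name begins with Rpl, Rps or Rplp followed by a number. The testis paralog Rpl10l and the ribosomal protein S6 kinases (names beginning with Rps6k) were left out, which removed 10 of 94 matching rows. This left 84 transcript models with 74 gene names, out of 11767 named models and 55419 counted ones. By role, 44 models belonged to the large subunit, 31 to the small subunit and 3 to the stalk. A further 4 belonged to 3 paralogs (Rpl39l, Rpl7l1 and Rps27l), 1 carried a pseudogene's name (Rpl13a-ps1), and 1, Rps19bp1, encodes a binding partner of Rps19 and not a ribosomal protein.

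The study measured mouse cells of 5 kinds by RNA sequencing, with 2 libraries each. V6.5 embryonic stem (ES) cells are a male line of 129SvJae x C57BL/6 background, grown in a LIF medium on feeder fibroblasts and then moved to gelatin. The same line was also grown in 2i, a serum-free medium with LIF and the kinase inhibitors CHIR99021 (against GSK3) and PD0325901 (against MEK). Primary neural progenitor cells (NPC) came from whole brains of 129SvJae x C57BL/6 mice at postnatal day 1 that carried Sox2-eGFP, and were grown as neurospheres before plating. Induced pluripotent stem (iPS) cells were made from such NPC and so carry Sox2-eGFP too. They were grown with serum and LIF or in 2i, on feeders and then on gelatin. The labels state neither how many animals or iPS clones stand behind the libraries nor whether the 2 libraries of a group were separate cultures. The p-values therefore measure the spread between these libraries, which may be technical.

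Reads assigned to a transcript model ranged from 1150624 to 17286063 per library, with a median of 5812929. Reads in no model made up 26.5% to 86.6% of unique reads, and the ES libraries lay far apart in it, at 26.5% and 81.5%. Levels are CPM, the usual count scaled to the library's assigned reads, after TMM scaling, and they are relative. Pou5f1, which marks pluripotent cells, had 0 CPM in both NPC libraries and 848 CPM or more in all 8 others. Summed markers of feeder fibroblasts (7 of 10 listed were in the table) ran from 1248 to 1438 CPM in ES, 486 to 499 CPM in ES in 2i, 157 to 193 CPM in NPC, 3028 to 3188 CPM in iPS and 1001 to 1011 CPM in iPS in 2i. None of these 7 was at 0 in any group, and their part in the results was not tested.

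The cytosolic ribosome is built from ribosomal RNAs and a single copy of nearly every ribosomal protein, so cells make these proteins in matched amounts. Most of the mRNAs start with a run of pyrimidines, the terminal oligopyrimidine motif, through which mTOR signalling controls their translation. Pluripotent cells divide fast and carry abundant ribosome assembly factors. In mammals nearly all of these genes have several processed pseudogenes, so short reads can match several places.

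The starts of some members are given as 30 bases centred on the RefSeq start site of mouse assembly GRCm38.p6, 5′ to 3′. Capitals mark the longest run of pyrimidines that overlaps positions -2 to 3, where the first base is 1 and the base before it -1. The first 5 genes were higher in iPS than in ES cells, the next 5 were lower, and the last 3 are the paralogs. The first 5 do not stand for all members that rose. Among members of at least 100 CPM, 7 rose and had a RefSeq promoter. A run of 5 or more was found in 3 of these 7, and all 3 are printed. Rplp0 and Rps3, which also rose, are not printed and had runs of 0 and 2.
Rpl18, chr7:45718056-45718085, plus strand: tgcgtctcgcaggccgCTCTTTCCCCgccc
Rpl28, chr7:4792950-4792979, plus strand: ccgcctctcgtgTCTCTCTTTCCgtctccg
Rplp2, chr7:141447636-141447665, plus strand: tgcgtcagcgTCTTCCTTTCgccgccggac
Rpl27, chr11:101442230-101442259, plus strand: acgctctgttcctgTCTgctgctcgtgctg
Rps15, chr10:80292416-80292445, plus strand: cccggcagagctcgCgataactgcgcaagc
Rpl36a, chrX:134585639-134585668, plus strand: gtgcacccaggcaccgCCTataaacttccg
Rpl31, chr1:39367836-39367865, plus strand: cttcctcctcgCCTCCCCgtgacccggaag
Rpl5, chr5:107900513-107900542, plus strand: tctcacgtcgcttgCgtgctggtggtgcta
Rpl23, chr11:97782425-97782454, minus strand: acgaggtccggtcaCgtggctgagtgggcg
Rpl22, chr4:152325711-152325740, plus strand: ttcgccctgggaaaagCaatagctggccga
Rpl39l, chr16:10170213-10170242, plus strand: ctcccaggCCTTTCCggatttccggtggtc
Rpl7l1, chr17:46782642-46782671, minus strand: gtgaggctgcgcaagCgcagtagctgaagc
Rps27l, chr9:66946071-66946100, plus strand: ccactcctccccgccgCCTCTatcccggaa

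Of the 74 gene names, 54 had a RefSeq promoter of 250 bases before to 50 bases after the start. A run of 5 or more pyrimidines lay at the start in 23 of them (42.59%), against 21.9% of 17492 protein-coding genes, and a run of 8 or more in 16 (29.63% against 6.77%). The ETS core CCGGAA, searched on both strands, was present in 27 promoters (50% against 19.07%), and the YY1 motif AAGATGGC in 5 (9.26% against 3.22%). TATAAA was rarer among the members, at 4 promoters (7.41% against 13.34%). RefSeq starts need not be the ones most used in these cells, and a match describes letters only.

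The counts belong to transcript models, and the files list reads that fit several models apart, as ambiguous (6.00% to 35.6% of unique reads). A gene with several models can therefore hold few counted reads. The low-count filter passed 80 of the 84 models. The 4 that did not pass included those of Rpl19 and Rpl35a and the chromosome X model of Rps4x. A mean of at least 100 CPM over the 10 libraries, a bound chosen after seeing the data, was reached by 49 models with 49 different names, which held 99.0% to 99.5% of all member reads. Just under the bound lay Rps12 (94.3 CPM) and 1 model of Rpl3 (70.8 CPM), and just above it Rps19bp1 (106 CPM) and the chromosome 5 model of Rpl29 (121 CPM). The places of some models need care. The model named Rps4x with most reads (chr6:148303178-148304118, mm9) is not on chromosome X, where RefSeq has Rps4x. RefSeq lists on chromosome 6, in the other build GRCm38.p6, a transcribed pseudogene of the same length, 941 bp, named Rps4l. Among the authors' named models it lies next to 4732416N19Rik, which also lies near Rps4l in RefSeq. Ipo8, on its other side, is not among the RefSeq entries nearest Rps4l. Whether both are the same locus was not checked by coordinates. By its name the model is counted here with the small subunit. The 2 models named Rpl29 lie on chromosomes 1 and 5, and RefSeq has Rpl29 on chromosome 9.

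The members took up 7.47% and 8.01% of assigned reads in the NPC libraries, 10.4% and 10.2% in ES, 8.87% and 9.96% in ES in 2i, 9.00% and 9.35% in iPS, and 10.97% and 10.4% in iPS in 2i. Both NPC libraries were below the 8 pluripotent ones. The 6 members with the highest mean log2 CPM were Rplp0, Rpl8, Rpl7a, Rplp1, Rpl6 and Rpl15. CPM is not scaled by transcript length, so this order does not rank the mRNAs.

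**Figure D1:**
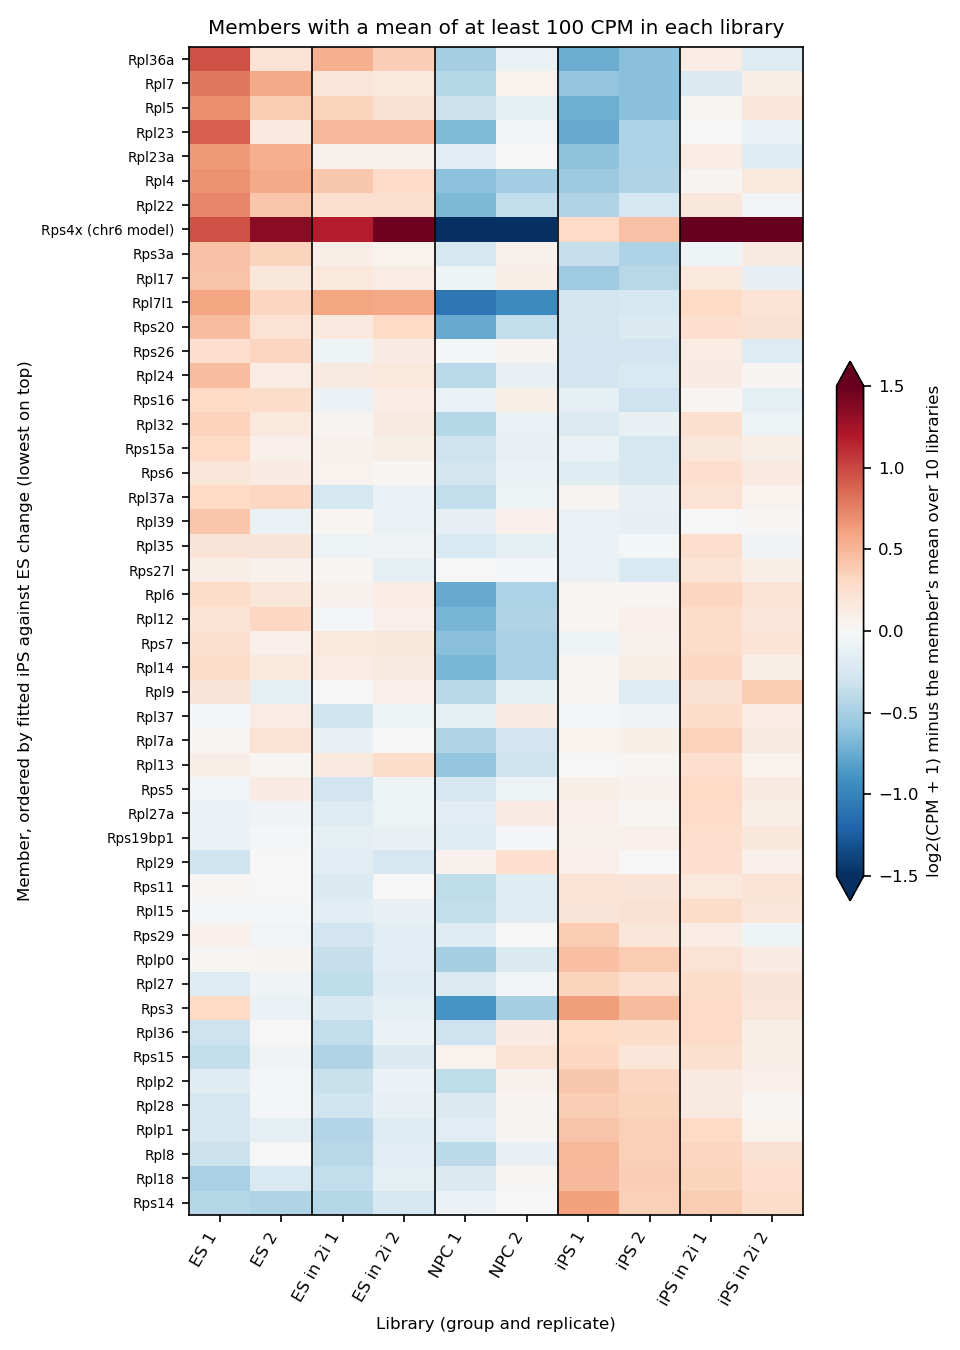
Level of 48 of the 49 members with a mean of at least 100 CPM in each of the 10 libraries, as log2(CPM + 1) minus the member's mean (colour), with members ordered by their fitted iPS against ES change. The top rows (Rpl36a, Rpl7, Rpl5) are red in ES and blue in iPS, the bottom rows (Rps14, Rpl18, Rpl8) are blue in ES and red in iPS, and the chromosome 6 model named Rps4x is far lower in both NPC libraries.

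NPC and ES cells were compared first, a contrast of a neural with a pluripotent state. More ribosomal protein transcripts were lower than higher in NPC. Of 80 members tested, 33 fell and 3 rose, where 33.7% of all 11031 models were called lower and 27.3% higher (edgeR quasi-likelihood test, Benjamini-Hochberg adjusted p under 0.05). The members' median log2 change was -0.35 against -0.21 for all models, and the members' quartiles were -0.78 and -0.04 against -1.39 and 0.93. Among members of at least 100 CPM, 26 of 49 fell (53.1%), and among all 1614 models of that level 53.5% did. At that level 3 of the 49 members rose (6.12%), against 28.3% of all models. The members' share of falls was thus close to the background there, and their share of rises was below it. Fewer cells of a type and less RNA per cell cannot be told apart in these bulk samples.

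Among the falls in NPC, Rpl4, whose long loop lines the exit tunnel of the large subunit, had 3219 and 2992 CPM in ES and 1313 and 1401 CPM in NPC (log2 change -1.19 ± 0.13 (SE), edgeR adjusted p = 1.1e-09). Rpl22, an RNA-binding protein of the large subunit, had 1377 and 1112 CPM in ES and 522 and 644 CPM in NPC (log2 change -1.09 ± 0.14 (SE), edgeR adjusted p = 6.5e-08). The groups did not overlap for either gene. Rpl31, a large subunit protein near the tunnel exit, had 33.5 and 33.2 CPM in ES and 11.7 and 16.5 CPM in NPC (log2 change -1.15 ± 0.23 (SE), edgeR adjusted p = 5.8e-05), and Rps12, a small subunit protein, had 84.3 and 78.7 CPM and 35.2 and 37.95 CPM (log2 change -1.15 ± 0.16 (SE), edgeR adjusted p = 3.7e-07). For both, every NPC library lay below every ES library. Rpl6, Rpl12, Rpl14, Rps7 and Rps20 also fell, with log2 changes of -0.84, -0.82, -0.80, -0.71 and -0.89. By role, 18 of 42 large subunit models and 12 of 29 small subunit models fell, with medians of -0.39 and -0.35.

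The 3 members that rose in NPC were Rps14, Rps15 and the chromosome 5 model named Rpl29. Rps14, a small subunit protein at the platform, had 1435 and 1418 CPM in ES and 1820.1 and 1947 CPM in NPC (log2 change 0.40 ± 0.13 (SE), edgeR adjusted p = 0.0076). Rps15, which small subunit export needs, had 1498 and 1862 CPM and 2002 and 2249 CPM (log2 change 0.34 ± 0.13 (SE), edgeR adjusted p = 0.029). The groups did not overlap, but these 3 calls were fragile: without ES replicate 2, NPC replicate 2, iPS replicate 1 or iPS in 2i replicate 1, none of the members was called higher. Without ES replicate 1, either ES in 2i library, iPS replicate 2 or iPS in 2i replicate 2, the count was 1. Without the low-count filter it was 0, and the change of all models then moved by a median of -0.17 on the log2 scale.

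Reprogramming was followed by comparing iPS cells with NPC, the cells they were made from. Of 80 members, 29 were higher in iPS (background 29.3%) and 6 lower (background 22%), and the median log2 change was 0.26 against 0.16 for all models. Among members of at least 100 CPM, 21 of 49 were called higher (42.9%, against 56.0% of all models of that level) and 5 lower (10.2% against 15.9%). Rps3, a small subunit protein at the mRNA entry, had 70.3 and 92.1 CPM in NPC and 202 and 182 CPM in iPS (log2 change 1.20 ± 0.16 (SE), edgeR adjusted p = 1.1e-07). Rps12 went from 35.2 and 37.95 CPM to 99.0 and 82.6 CPM (log2 change 1.29 ± 0.16 (SE), edgeR adjusted p = 6.5e-08). Both were higher in every iPS library than in either NPC library. Rpl14, Rpl6 and Rpl12 were higher by 0.64, 0.63 and 0.62 on the log2 scale.

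A few members were lower in iPS than in NPC. They were Rpl17, Rpl5, Rpl7, Rpl23a and Rpl36a, with log2 changes of -0.50, -0.46, -0.46, -0.45 and -0.43, and Rpl41, whose model held 6.70 and 10.1 CPM in NPC and 1.03 and 3.06 CPM in iPS. All 6 belong to the large subunit, and all large subunit models together had 13 rises and 6 falls out of 42. No fall was called among 29 small subunit models, where 10 rose. The count of 6 fell to 1 without iPS replicate 1 and to 2 without NPC replicate 2 or iPS in 2i replicate 1. NPC libraries are part of both comparisons above, so the values are given side by side only.

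iPS and ES cells, both pluripotent and neither in 2i, differed in single ribosomal protein transcripts, while the median change was close to 0. Of 80 members, 22 were lower in iPS (background 26.9%) and 16 higher (background 25.9%), with a median log2 change of -0.03 for members and -0.03 for all models. Over all tested members these shares are near the background. Among members of at least 100 CPM, 11 of 49 were called higher (22.4%, against 43.1% of all models of that level) and 19 lower (38.8% against 32.7%). Without ES replicate 1 or iPS replicate 1, the count of higher members dropped to 9 and 7, and without ES replicate 2 the count of lower members was 33.

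The summed feeder markers were 1248 to 1438 CPM in ES and 3028 to 3188 CPM in iPS, and their part in the differences was not tested. Other marker sums differed as well. Neural progenitor markers had 97.7 to 105 CPM in ES and 287 to 321 CPM in iPS. Neuron markers had 358 to 411 CPM in ES and 1094 to 1310 CPM in iPS. Embryonic stem cell markers went the other way, from 6961 to 7188 CPM in ES to 5882 to 6796 CPM in iPS. The part of these was not tested either.

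Of the large subunit models 13 of 42 fell (31.0%), and of the small subunit models 7 of 29 (24.1%). Rpl7, a large subunit protein (chr1:16091376-16094514, mm9), had 1647 and 1407 CPM in ES and 627 and 613 CPM in iPS (log2 change -1.30 ± 0.15 (SE), edgeR adjusted p = 8.1e-09). Rpl5, which carries the 5S RNA into the ribosome and can bind Mdm2 (chr5:108329547-108338024), had 1651 and 1334 CPM and 612 and 661 CPM (log2 change -1.23 ± 0.13 (SE), edgeR adjusted p = 4.4e-09). The groups did not overlap for either gene. Rpl36a, encoded on the X chromosome (chrX:131120193-131122601), had 413 and 248 CPM in ES and 127 and 138 CPM in iPS (log2 change -1.33 ± 0.17 (SE), edgeR adjusted p = 8.3e-08). Rpl23 had 484 and 287 CPM and 153 and 187 CPM (log2 change -1.19 ± 0.18 (SE), edgeR adjusted p = 1.3e-06). The ES libraries differed much for these 2 genes, and the lower of them was still above both iPS libraries. Rpl31, Rpl23a, Rpl4 and Rpl22 fell by 1.33, 1.12, 1.12 and 0.94 on the log2 scale. In the small subunit, Rps3a fell by 0.79, Rps20 by 0.59 and Rps26 by 0.57.

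Among members of at least 100 CPM, the highest rise in iPS was that of Rps14, which had 1435 and 1418 CPM in ES and 2973 and 2486 CPM in iPS (log2 change 0.94 ± 0.13 (SE), edgeR adjusted p = 3.0e-07). Rpl18 had 2018 and 2423 CPM and 3984 and 3659 CPM (log2 change 0.78 ± 0.13 (SE), edgeR adjusted p = 8.9e-06), and Rpl8, a protein next to the peptidyl transferase centre (chr15:76734501-76736748), had 3755 and 4686 CPM and 6658 and 6006 CPM (log2 change 0.59 ± 0.14 (SE), edgeR adjusted p = 5.3e-04). In all 3 the iPS libraries lay above both ES libraries. Rpl3 and Rps19 were also called higher, each with 2 models, all 4 of them below 100 CPM: the model of Rpl3 with fewer reads had 5.56 and 6.58 CPM in ES and 16.7 and 14.1 CPM in iPS (log2 change 1.38 ± 0.26 (SE), edgeR adjusted p = 3.6e-05), and that of Rps19 had 3.82 and 5.27 CPM and 12.6 and 8.00 CPM (log2 change 1.26 ± 0.31 (SE), edgeR adjusted p = 8.7e-04). Such models count only the reads that no other model of the gene claims.

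**Figure D2:**
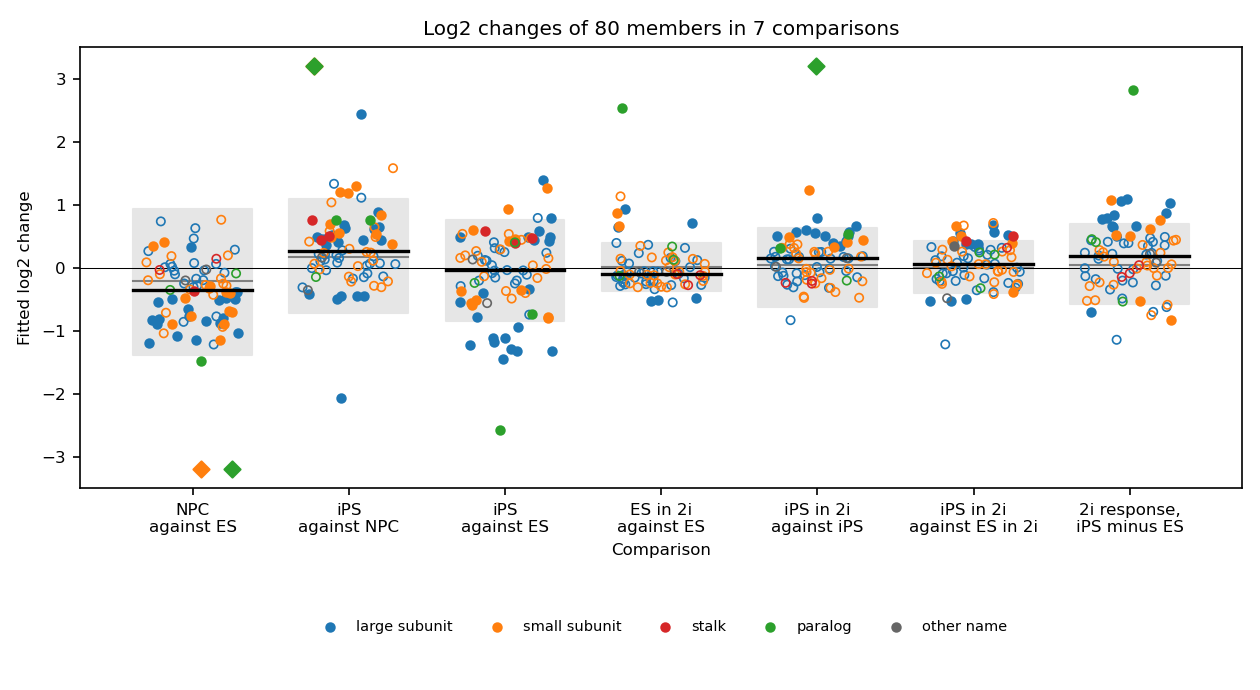
Fitted log2 change (vertical axis) of the 80 members in each of the 7 comparisons, coloured by role, filled where the adjusted p was under 0.05. Black lines give the members' medians, grey lines and boxes the median and quartiles of all 11031 models, and diamonds at the edge stand for Rpl39l and the chromosome 6 Rps4x model where they lie beyond the axis. The members' medians stay within the grey boxes in all 7 comparisons.

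ES cells grown in 2i were compared with those in LIF medium without 2i. Of 80 members, 6 rose (background 11.3%) and 3 fell (background 13.2%), and the median log2 change was -0.10 against 0.00 for all models. Of all 1614 models of at least 100 CPM, 10.7% rose and 17.4% fell. All 6 that rose had a mean below 100 CPM. Besides Rpl39l they were Rps12, from 84.3 and 78.7 CPM to 157 and 141 CPM (log2 change 0.86 ± 0.13 (SE), edgeR adjusted p = 6.0e-06), and models of Rpl10a, Rpl3, Rps9 and Rpl21. The members that fell were Rpl23a, Rpl7 and Rpl37a of the large subunit, by 0.52, 0.52 and 0.48 on the log2 scale. Rpl7 went from 1647 and 1407 CPM to 1073 and 1060.0 CPM, without overlap. Leaving out ES replicate 2, the library with 81.5% of reads in no model, raised the count that fell to 13, and leaving out NPC replicate 1 raised it to 6. DESeq2 called 6 higher and 5 lower.

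In iPS cells, the called changes upon 2i went in 1 direction, as 20 of 80 members rose (background 21.1%) and 0 fell (background 21.5%), by edgeR's adjusted p. At an unadjusted p under 0.05, 4 members fell, and DESeq2 called 18 higher and 0 lower. The median log2 change was 0.15 against 0.03 for all models. At 100 CPM or more, 16 of 49 rose and 0 fell, where 27.4% and 34.0% of all models of that level did. Rpl5 had 612 and 661 CPM in iPS and 1032 and 1155 CPM in iPS in 2i (log2 change 0.78 ± 0.13 (SE), edgeR adjusted p = 1.6e-05). Rpl36a had 127 and 138 CPM and 230.2 and 186 CPM (log2 change 0.65 ± 0.17 (SE), edgeR adjusted p = 0.0023). Rpl4 had 1387 and 1478 CPM and 2079 and 2248 CPM (log2 change 0.59 ± 0.12 (SE), edgeR adjusted p = 2.1e-04). In all 3 the 2i libraries lay above both iPS libraries. Rpl7, Rpl23, Rpl23a, Rpl17, Rps20 and Rps3a rose by 0.56, 0.56, 0.50, 0.49, 0.49 and 0.44 on the log2 scale. Rpl27a, nearest the median, had 3103 and 2983 CPM and 3592 and 3138 CPM (log2 change 0.15 ± 0.13 (SE), edgeR adjusted p = 0.38). The count of rises was 8, 12 and 11 without iPS replicate 1, iPS replicate 2 and iPS in 2i replicate 1, and 1 member fell without NPC replicate 1. The summed feeder markers moved with this contrast too, from 3028 to 3188 CPM in iPS down to 1001 to 1011 CPM in 2i, and their part in it was not tested. Neural progenitor markers went from 287 to 321 CPM in iPS down to 103 to 116 CPM in 2i. Neuron markers went from 1094 to 1310 CPM down to 526 to 553 CPM, and the part of both was not tested. Embryonic stem cell markers overlapped, at 5882 to 6796 CPM and 6431 to 6434 CPM. The share of reads in no model also differed without overlap, at 75.8% and 68.4% in iPS and 65.02% and 37.4% in iPS in 2i. Its part was not tested either.

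The difference between the 2i responses was tested as an interaction. The response of iPS cells exceeded that of ES cells for 16 members (background 15.1%) and was below it for 3 (background 12.2%), and the median difference was 0.18 against 0.04 for all models. DESeq2 called 22 and 1, and limma on the authors' table called 0 and 0 (10 and 5 at an unadjusted p under 0.05). Among members of at least 100 CPM, a positive difference was called for 14 of 49 and a negative one for 0, where all models of that level gave 22.9% and 23.1%. Rpl7 fell in ES and rose in iPS upon 2i, a difference of 1.08 ± 0.20 (SE) on the log2 scale (edgeR adjusted p = 1.5e-04). Rpl5, Rpl23a and Rpl4 differed by 1.05, 1.02 and 0.87. The iPS and ES libraries enter both this and the comparisons above. The count of positive differences was 29 without ES replicate 2 and 9 without ES replicate 1, iPS replicate 1 or iPS in 2i replicate 1. The count of negative ones was 0 without iPS in 2i replicate 2, and 1 without ES in 2i replicate 1, NPC replicate 2, iPS replicate 1 or iPS in 2i replicate 1.

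iPS and ES cells were also compared with both in 2i, which uses none of the libraries of the first iPS against ES comparison. Of 80 members, 15 were higher in iPS (background 13.7%) and 4 lower (background 11.6%), while DESeq2 called 18 and 0, and limma on the authors' table called 0 and 0 (6 and 3 at an unadjusted p under 0.05). The median log2 change was 0.06, against -0.01 for all models. Of the members at 100 CPM or more, 14 of 49 were called higher (28.6%, against 27.6% of all models of that level) and 2 lower (4.08% against 16.8%). Rps14 had 1441 and 1626 CPM in ES in 2i and 2521 and 2333 CPM in iPS in 2i (log2 change 0.66 ± 0.13 (SE), edgeR adjusted p = 2.6e-04). Rpl8 had 3528 and 4202 CPM and 5875 and 5507 CPM (log2 change 0.56 ± 0.14 (SE), edgeR adjusted p = 0.0027), and Rpl18 had 2199 and 2562 CPM and 3569 and 3384 CPM (log2 change 0.55 ± 0.13 (SE), edgeR adjusted p = 0.0025). In all 3 the iPS libraries were the higher ones, as they were outside 2i. Rpl27 and Rps15 were higher by 0.52 and 0.50. Rpl31, Rpl23, Rpl36a and Rps12 were lower, with log2 changes of -0.54, -0.53, -0.49 and -0.39. The count of higher members rested on single libraries: it was 1 without iPS in 2i replicate 1, 3 without ES in 2i replicate 1 and 8 without iPS replicate 1, and 7 without the low-count filter. The count of lower members was 1 without ES in 2i replicate 1 or either iPS in 2i library, 8 without ES replicate 2 and 7 without NPC replicate 2.

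The members called between iPS and ES outside 2i are set beside their values in 2i. Of the 16 members called higher in iPS outside 2i, 10 were called higher in 2i (62.5%), which is 66.7% of the 15 called there. For all models these shares were 38.8% and 73.3%. Of the 22 members called lower outside 2i, 3 were called lower in 2i (13.6%), which is 75.0% of the 4 called there, and for all models the shares were 31.7% and 73.6%. Over the 49 members of at least 100 CPM, the 2 sets of log2 changes had a Pearson r of 0.90 and a Spearman rho of 0.89 (across genes, which are not independent replicates). Over all 1614 models of that level, r was 0.68. The 19 members of at least 100 CPM that were lower outside 2i had a median of -0.78 there and -0.07 in 2i, and the 11 that were higher had 0.46 and 0.49. Both sets were picked by their calls outside 2i, so their medians outside and in 2i are not a like comparison.

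**Figure D3:**
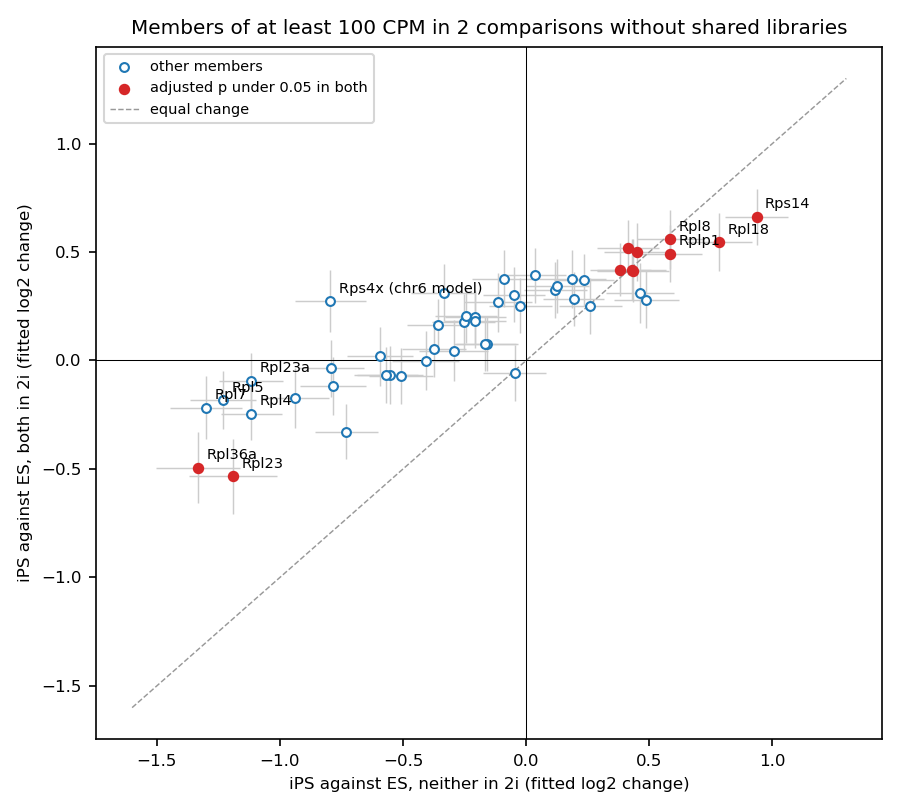
Fitted log2 change of 49 members of at least 100 CPM for iPS against ES outside 2i (horizontal axis) and in 2i (vertical axis), with standard errors as bars and red points where both adjusted p were under 0.05. The points rise together (r = 0.90), and those on the left, such as Rpl7 and Rpl5, lie well above the dashed line of equal change. Points named as on the left are picked by their horizontal value, so their height above that line is not a like comparison.

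In some groups, though not in all, the 2 libraries differed along a like ordering of the members. Over the 49 members, the log2 ratio of ES replicate 2 to ES replicate 1 had an SD of 0.25 and followed the iPS against ES change in 2i, which uses neither library, with r = 0.73. For the ratio of replicate 2 to replicate 1 of ES in 2i and the iPS against ES change outside 2i, r was 0.63. For that ratio of the iPS libraries and the change in 2i it was -0.63. All ratios below are also of replicate 2 to replicate 1. Over all 1614 models of at least 100 CPM, these were 0.38, 0.33 and -0.33. For the NPC libraries, r over the 49 members was -0.21 with the change outside 2i and -0.18 with that in 2i, and for the iPS in 2i libraries it was -0.18 with the change outside 2i. With the 2i response of iPS cells, r over the 49 members was -0.37 for ES, -0.50 for ES in 2i and 0.23 for NPC. Over all 1614 models of that level these were -0.39, -0.16 and -0.12. ES replicate 2 had 81.5% of its reads in no model and replicate 1 had 26.5%. The iPS libraries had 75.8% and 68.4%, those of iPS in 2i 65.02% and 37.4%, and those of ES in 2i 35.7% and 28.2%. Where replicate 2 had the higher share (ES), r was 0.73, and where it had the lower share, r was -0.63 (iPS) but 0.63 (ES in 2i). The sign for ES in 2i thus went the other way. In 2i the share was thus higher in both iPS libraries than in both ES libraries, and outside 2i the groups overlapped. Both iPS libraries outside 2i also had a higher share than both iPS in 2i libraries. The part of this share in the differences was not tested. Without ES replicate 2, the library nearer to iPS in that share, the log2 change of Rpl7 between iPS and ES was -1.57, and without ES replicate 1 it was -1.19. The members that fell outside 2i and had a RefSeq promoter (12 of 19) had a median promoter GC content of 53.0% (range 40.7% to 60.7%). The chromosome 6 model named Rps4x was left out of the 12, and RefSeq has the promoter of that name on chromosome X. Members that rose (7 of 11) had a median of 59.0% (range 51.3% to 63.0%). A pyrimidine run of 5 or more lay at the start of 2 of the 12 and 3 of the 7, and both ranges of GC content overlap.

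The stalk of the large subunit, made of Rplp0 and copies of Rplp1 and Rplp2, recruits the elongation factors. All 3 were called higher in iPS than in ES outside 2i. Of all models 25.9% were, and of those of at least 100 CPM 43.1%. The same shares were 29.3% and 56.0% for iPS against NPC, where all 3 were called higher too. With both in 2i, 2 of the 3 were called higher in iPS (13.7% and 27.6%). Rplp0 had 9118 and 9294 CPM in ES, 6404 and 7757 CPM in NPC and 12296 and 11700.5 CPM in iPS (iPS against ES log2 change 0.38 ± 0.12 (SE), edgeR adjusted p = 0.010). Rplp1 had 3338 and 3565 CPM, 3543 and 4055 CPM and 5306 and 5037 CPM (log2 change 0.58 ± 0.13 (SE), edgeR adjusted p = 3.4e-04). Rplp2 had 1613 and 1806 CPM, 1399.8 and 1920.0 CPM and 2428 and 2279.8 CPM (log2 change 0.46 ± 0.14 (SE), edgeR adjusted p = 0.0059). The iPS libraries were the highest of these 6 for each gene. In NPC against ES, Rplp0 fell (log2 change -0.38 ± 0.12 (SE), edgeR adjusted p = 0.0093) and Rplp1 and Rplp2 had log2 changes of 0.14 and -0.04, neither called. Upon 2i none of the 3 was called in either line, with log2 changes of -0.28 to -0.11 in ES and -0.26 to -0.21 in iPS. The iPS against ES calls of Rplp0 and Rplp2 were lost on leaving out ES replicate 1.

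The largest called change among the members in 2i was that of Rpl39l, a paralog of the X-linked Rpl39 known for its expression in testis (chr16:10170321-10175004, mm9). It had 19.3 and 18.4 CPM in ES and 116 and 104 CPM in ES in 2i (log2 change 2.53 ± 0.16 (SE), edgeR adjusted p = 1.3e-13). In iPS it had 3.71 and 2.72 CPM, from 18 and 16 reads, and in iPS in 2i 137 and 123 CPM (log2 change 5.35 ± 0.21 (SE), edgeR adjusted p = 3.8e-18). Both lines were thus higher in 2i, without overlap, and the rise was larger in iPS by 2.81 on the log2 scale (edgeR adjusted p = 8.6e-09). Outside 2i the iPS libraries lay below the ES libraries (log2 change -2.57 ± 0.24 (SE), edgeR adjusted p = 2.3e-10), while in 2i the log2 change was 0.24 (edgeR adjusted p = 0.21). No read was counted in either NPC library. With a floor of 3 counts per library (1.69 CPM on average), Rpl39l was at least 11.2-fold lower in NPC than in ES and at least 1.90-fold higher in iPS than in NPC. Rpl39 itself did not follow: it had 1247 and 874 CPM in ES, 958 and 877 CPM in ES in 2i, 859 and 986 CPM in NPC, 871 and 861 CPM in iPS and 944 and 951 CPM in iPS in 2i, and it was called in none of the 7 comparisons.

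**Figure D4:**
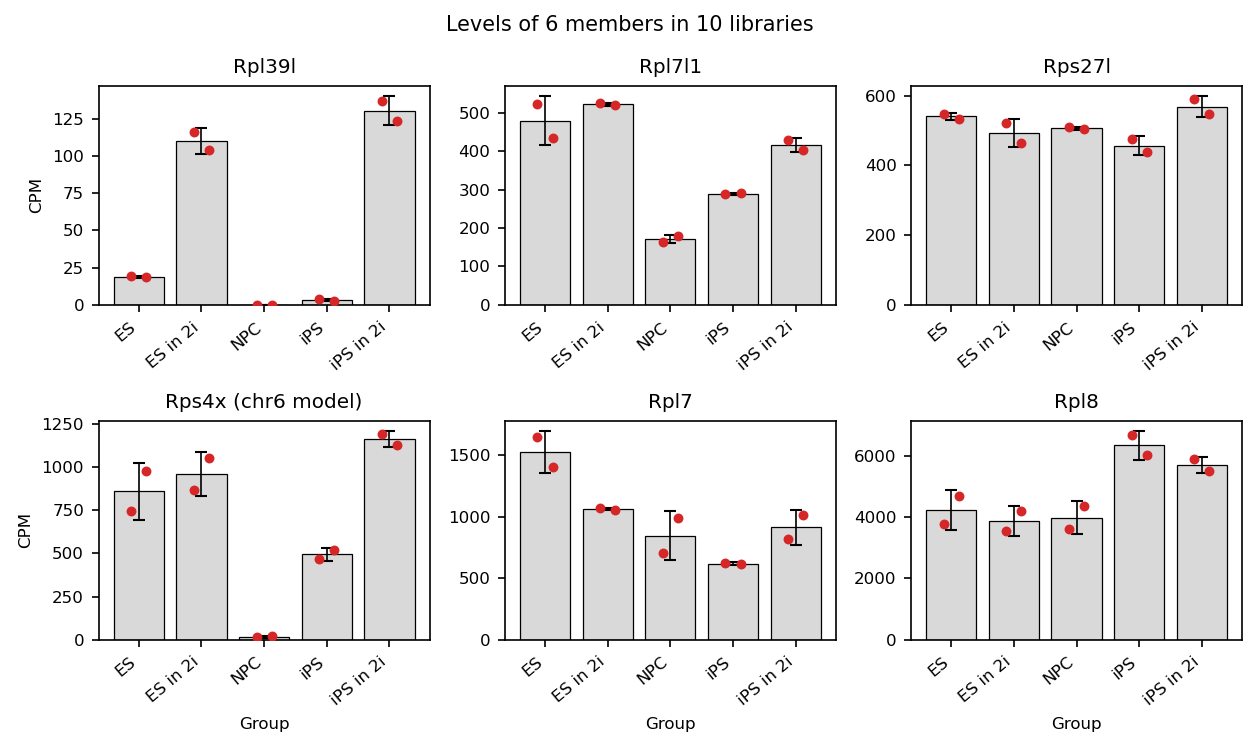
CPM of 6 members in the 5 groups: bars give the mean of 2 libraries, error bars the SD, points the libraries, and each vertical axis starts at 0. Rpl39l is at 0 in NPC and above 100 CPM in 2i in both lines, Rps27l runs from 437 to 589 CPM, and Rpl7 and Rpl8 differ between ES and iPS in opposite directions.

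Rpl7l1, a paralog of Rpl7 with a role in large subunit assembly, followed the neural to pluripotent contrast. Its main model (chr17:46910856-46919605) had 524 and 434 CPM in ES and 163 and 178 CPM in NPC (log2 change -1.48 ± 0.14 (SE), edgeR adjusted p = 5.6e-11). In iPS it reached 287 and 291 CPM, above NPC (log2 change 0.75 ± 0.14 (SE), edgeR adjusted p = 2.3e-05) and below ES (log2 change -0.73 ± 0.13 (SE), edgeR adjusted p = 1.5e-05). It rose in iPS upon 2i to 429 and 403 CPM (log2 change 0.52 ± 0.13 (SE), edgeR adjusted p = 0.0012), and ES in 2i had 524 and 519 CPM. The second model of Rpl7l1 had 5.86 to 14.1 CPM and was called only for iPS against NPC (log2 change 0.75 ± 0.31 (SE), edgeR adjusted p = 0.045). Rps27l, a paralog of Rps27 and a p53 target, ran from 437 to 589 CPM over the 10 libraries (chr9:66793925-66797316). It was called for iPS in 2i against iPS (log2 change 0.32 ± 0.12 (SE), edgeR adjusted p = 0.041), a call lost with a left-out library, and in no other comparison. Rps19bp1 had 92.1 to 126 CPM and was called only for iPS in 2i against ES in 2i (log2 change 0.34 ± 0.13 (SE), edgeR adjusted p = 0.041).

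The chromosome 6 model that carries the name Rps4x was far lower in NPC than elsewhere. It had 743 and 976 CPM in ES, 869 and 1050.0 CPM in ES in 2i, 469 and 520.4 CPM in iPS, 1193 and 1128 CPM in iPS in 2i, and 13.4 and 20.9 CPM in NPC. All 8 pluripotent libraries lay far above both NPC libraries (NPC against ES log2 change -5.54 ± 0.20 (SE), edgeR adjusted p = 8.4e-21). iPS lay above NPC (log2 change 4.74 ± 0.20 (SE), edgeR adjusted p = 4.2e-19), below ES (log2 change -0.80 ± 0.14 (SE), edgeR adjusted p = 2.6e-05) and rose upon 2i (log2 change 1.23 ± 0.15 (SE), edgeR adjusted p = 3.4e-08). The chromosome X model of Rps4x did not pass the filter, so the copies cannot be compared. Since counting from near-identical copies is uncertain, whether these reads come from chromosome 6 was not tested.

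Of the 3 models on chromosome X, those of Rpl36a and Rpl39 passed the filter. Rpl36a was called in 6 of 7 comparisons and Rpl39 in 0. Rpl36a had 331 ± 117 CPM (SD, n = 2) in ES and 132 ± 7.58 CPM (SD, n = 2) in iPS.

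Of 4 tested genes for proteins of the ribosome whose names the rule does not cover, 2 were called higher in iPS against NPC. In iPS against ES 2 were called higher, and in ES in 2i against ES 2. Of all models, 29.3%, 25.9% and 11.3% were called higher in these comparisons. The difference of the 2i responses was called negative for 1 (background 12.2%). Fau encodes the small subunit protein S30 fused to a ubiquitin-like part. Its model held few reads, with means of 1.97 CPM in ES, 1.16 CPM (SD 1.64) in NPC and 5.32 CPM in iPS. Fau was called higher in iPS than in NPC (log2 change 1.66 ± 0.57 (SE), adjusted p = 0.015 by edgeR) and than in ES (1.57 ± 0.42 (SE), adjusted p = 0.0021 by edgeR). Rpsa, a small subunit protein also known as a laminin receptor, had means of 12.6 CPM in ES, 13.2 CPM in NPC and 24.1 CPM in iPS. It was higher in the same comparisons by 0.87 and 0.86, and in ES in 2i than in ES by 0.63 (adjusted p = 0.019 by edgeR). Its 2i response was lower in iPS than in ES, by a log2 difference of -1.07 ± 0.29 (SE), adjusted p = 0.0059 by edgeR. Gnb2l1, which encodes the scaffold Rack1 on the small subunit, had means of 7.95 CPM (SD 4.16) in ES and 15.9 CPM (SD 0.67) in ES in 2i. It was called higher in ES in 2i than in ES (log2 change 0.84 ± 0.24 (SE), adjusted p = 0.0099 by edgeR).

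Genes that build the ribosome had a lower median in NPC than the ribosomal proteins themselves. Of 79 tested ribosome assembly and nucleolar genes, 64 fell and 1 rose in NPC against ES, with a median log2 change of -1.22 where the members had -0.35 and all models -0.21. Of all models 33.7% fell and 27.3% rose, the shares beside which the counts of each list stand. Wdr3 and Heatr1, both of the small subunit processome, had log2 changes of -3.05 ± 0.31 (SE), adjusted p = 7.4e-10 and -2.84 ± 0.20 (SE), adjusted p = 2.1e-13 by edgeR. Translation initiation factors had 26 falls and 4 rises of 36, with a median of -0.92. RNA polymerase I and III genes had 14 falls and 6 rises of 24, snoRNA host genes 5 falls of 6, elongation factors 5 falls and 3 rises of 11, and other mRNAs with a terminal oligopyrimidine start 10 falls and 3 rises of 17. Among 15 genes that control ribosomal protein synthesis, 6 fell and 2 rose. Mycn, a transcription factor that drives ribosome production, had 5.33 and 6.06 CPM in ES and 0.837 and 0 CPM in NPC, a call by edgeR. Larp1, the protein that binds terminal oligopyrimidine starts, had 468 and 518 CPM in ES and 273 and 274 CPM in NPC (log2 change -0.85 ± 0.13 (SE), edgeR adjusted p = 1.4e-06).

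In iPS against NPC, 52 of the 79 assembly genes rose and 2 fell (all models 29.3% and 22%, median 0.82), and in iPS against ES 45 fell and 16 rose (all models 26.9% and 25.9%, median -0.55). Upon 2i, 28 rose and 10 fell in iPS (all models 21.1% and 21.5%, median 0.26), against 20 and 0 of the 80 ribosomal protein models (median 0.15). The differences between these lists and the members were not tested.

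**Figure D5:**
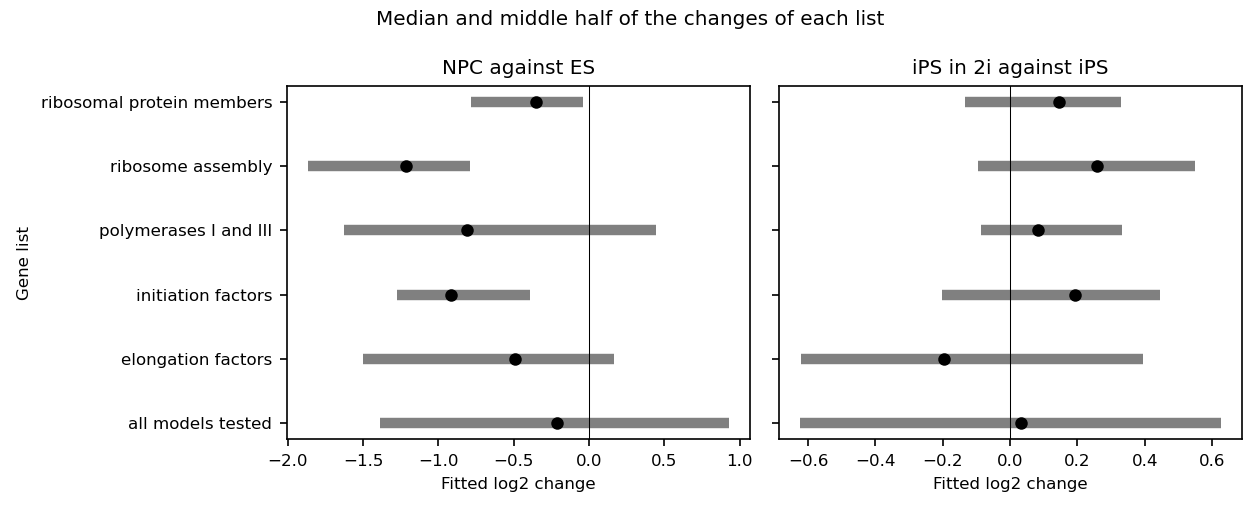
Median (dot) and quartiles (bar) of the fitted log2 change for ribosomal protein genes and the related lists, in NPC against ES and in iPS in 2i against iPS. Assembly genes have the lowest median of the lists in NPC (-1.22), and the members lie nearer to 0 (-0.35).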

How the data were processed

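RNA was measured in 10 libraries, 2 in each of 5 groups, made with a stranded kit from ribosomal RNA-depleted total RNA per the labels' protocols. The authors deposited read counts per transcript model. TopHat2 2.1.0, TopHat, HTSeq and the build mm9 come from the submitters' processing notes. The mode and strand option of HTSeq are stated in no source used here, so overlapping and antisense models, and near-identical copies, are uncertain. The authors also deposited a normalized expression table of log2 values. It gave the gene names and 1 alternative, run with limma 3.58.1 on the values as they are, since they were already on the log2 scale, where log2(value + 1) had been planned.

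Counts were tested in R 4.3.3 with edgeR 4.0.16 by its quasi-likelihood test after a filter on low counts and TMM scaling, with group as the only term over all 10 libraries and 5 residual degrees of freedom. The 92 spike-in entries and 5 summary entries were left out. The filter kept 11031 models and left out 44388, p-values were adjusted over all kept models by Benjamini-Hochberg, and the threshold was 0.05. The biological coefficient of variation was 0.117. The scripts were tested on simulated data. The alternatives were DESeq2 1.42.0, other scalings, no filter, a replicate block, leaving out libraries and members of at least 100 CPM, the last chosen after seeing the data.

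The members, the gene lists and the comparisons were chosen with earlier results of these data known. The rule for named genes took the 6 members of highest level, the stalk and paralog members, up to 6 members of largest and of smallest change per comparison among those called and not overlapping, the member nearest the median, and 2 genes per other list. Larp1 and further members given only by their log2 change were named after their values were seen. The promoter sequences come from RefSeq, assembly GRCm38.p6. Some genes that the rule names are not reported here.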

Additional observations from a re-analysis of the deposited data

Results flagged for a closer look

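By the edgeR interaction test, the 2i response was higher in iPS than in ES cells for 16 of 80 members (background 15.1%). For 3 it was lower (background 12.2%). With limma on the authors' table these counts were 0 and 0. The differences on the log2 scale were 2.81 for Rpl39l, 1.08 for Rpl7, 1.07 for the chromosome 6 model named Rps4x, 1.05 for Rpl5, 1.02 for Rpl23a and 0.87 for Rpl4. They were -0.83 for a model of Rps19, -0.70 for a model of Rpl3 and -0.54 for Rps12. All groups hold 2 libraries, so no search for single outlying libraries was made.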

How the results depend on the processing

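Leaving out 1 library at a time, with a group left with 1 library assumed to vary like the others, gave the ranges below, each followed by other settings that moved the value. The values with limma on the authors' table rest on all 84 members, since no low-count filter was applied to it. It called 20 members higher for iPS against NPC and 15 lower for iPS against ES, both outside the ranges below. The fit without the filter also held the 4 members that did not pass it. Over the 80 that passed, its median log2 change for iPS against NPC was 0.35.

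For NPC against ES, the count of higher members was 0 to 3, 0 without the filter, 1 with limma on the authors' table, and that of lower members 28 to 46, 20 with limma on the authors' table; the median log2 change was -0.64 to -0.27, -0.53 without the filter. For iPS against NPC, the count of higher members was 24 to 33, and that of lower members 1 to 8, 0 with limma on the authors' table; the median log2 change was 0.19 to 0.49, 0.38 without the filter. For iPS against ES, the count of higher members was 7 to 17, 9 with limma on the authors' table, and that of lower members 16 to 33; the median log2 change was -0.18 to 0.036, -0.17 among members of at least 100 CPM. For ES in 2i against ES, the count of higher members was 4 to 6, 2 with limma on the authors' table, 0 among members of at least 100 CPM, and that of lower members 2 to 13, 5 with DESeq2, 13 without NPC replicate 1 and ES replicate 2 together, 0 with limma on the authors' table; the median log2 change was -0.11 to -0.03, 0.0027 with limma on the authors' table. For iPS in 2i against iPS, the count of higher members was 8 to 30, 5 with limma on the authors' table, and that of lower members 0 to 1, 3 without NPC replicate 1 and ES replicate 2 together; the median log2 change was 0.060 to 0.28. For iPS in 2i against ES in 2i, the count of higher members was 1 to 20, 7 without the filter, 0 with limma on the authors' table, and that of lower members 1 to 8, 0 with DESeq2, 0 with limma on the authors' table, 2 among members of at least 100 CPM; the median log2 change was -0.01 to 0.09, 0.20 among members of at least 100 CPM. For the difference of the 2i responses, the count of higher members was 9 to 29, 26 without NPC replicate 1 and ES replicate 2 together, 0 with limma on the authors' table, and that of lower members 0 to 3, 1 with DESeq2, 1 without the filter, 0 with limma on the authors' table, 0 among members of at least 100 CPM; the median log2 change was 0.092 to 0.30, 0.38 among members of at least 100 CPM.

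With a replicate block the counts of higher and lower members were 2 and 33 for NPC against ES, 18 and 0 for iPS in 2i against iPS, and 14 and 5 for iPS in 2i against ES in 2i. Deviations from group means of same-numbered libraries correlated between -0.08 and 0.07 over all tested models. The labels do not say whether a replicate number marks a shared day, batch or culture, and these correlations cannot exclude it. Among 89 results for named members, 1513 alternatives gave 1309 calls on the same side of the threshold, 204 lost calls and 0 reversed directions, and 49 calls were lost with limma on the authors' table. The cause was not tested. With 2 libraries a group and 1150624 assigned reads in the shallowest library, small changes of low members could go undetected.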
